A study of Homo sapiens with 24 samples.

Results

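ODC1, the gene of ornithine decarboxylase, and 9 other genes of polyamine metabolism were followed at the level of cytosolic RNA, of ribosome footprints (the stretches of mRNA that ribosomes protect from nuclease) and of the ratio between both. The 10 genes were listed by name: ODC1, the antizyme inhibitor genes AZIN1 and AZIN2, the antizyme genes OAZ1 and OAZ2, the aminopropyl donor and synthase genes AMD1, SRM and SMS, and the catabolic genes SAT1 and PAOX. They are 10 of the 57992 genes used, all 10 were found by their Ensembl identifiers, and all 10 passed the filter on low counts in both assays. The cells were K562, an established human line from a myelogenous leukaemia, with a CRISPR interference system that represses the promoter a guide RNA points to. The groups were cells with the guide sgDDX3, aimed at the RNA helicase gene DDX3X, at days 0, 3 and 14, and cells with the control guide sgGal4 at days 0, 3 and 14. Each group had 2 libraries of footprints and 2 of cytosolic RNA, 24 libraries in all. The labels give doxycycline at 50 ng/ml, which turns the system on, for every sample, and do not state whether the day 0 cells had already received it. They do not state whether a line is 1 clone, nor whether replicates came from separate cultures. The p-values therefore cover the spread of these libraries alone, and that spread may be technical.

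Polyamines (putrescine, spermidine and spermine) are small positively charged molecules that bind RNA and are needed for growth. ODC1 makes putrescine from ornithine, AMD1 makes the aminopropyl donor from S-adenosylmethionine, SRM adds an aminopropyl group to give spermidine, and SMS adds another to give spermine. SAT1 acetylates spermidine and spermine, and PAOX oxidises the acetylated forms back. Antizymes, whose synthesis needs a programmed ribosomal frameshift that polyamines promote, bind ODC1 and send it to the proteasome without ubiquitin, and the antizyme inhibitors, relatives of ODC1, take the antizymes up. ODC1 is known as a target gene of MYC and for a long, structured leader that holds back its translation, and DDX3X is known as a helicase of translation initiation.

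The element that MYC binds with its partner MAX, the E-box CACGTG, is shown here because MYC itself was lower in the sgDDX3 cells, as given further on, and because the windows of ODC1 and SRM hold it. In windows of RefSeq (build GRCh38.p14) that run from 250 bases before an annotated start to 50 bases after it, 7 of the 10 genes had a window that was used, 10 windows in all. CACGTG reads the same on both strands. It occurred in 2 of these 10 windows, 1 of ODC1 and 1 of SRM, and in 7.26% of the 35116 windows of all genes. Since the motif is shown because these genes hold it, nothing is read from that count. The capitals mark the motif, with 12 bases on each side, written along the strand of the gene.
ODC1 copy 1: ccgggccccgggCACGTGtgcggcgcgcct
ODC1 copy 2: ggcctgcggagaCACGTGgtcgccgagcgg
SRM: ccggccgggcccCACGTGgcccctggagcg
Copy 1 of ODC1 lies at chr2:10448024-10448053 on the minus strand, with the motif 29 bases before one of the annotated starts. Copy 2 lies at chr2:10447990-10448019 on the minus strand, with the motif 5 bases after that same start, and the copies do not overlap. The other window of ODC1, at 10448278 to 10448577, belongs to the outermost annotated start and held no copy. Both copies lie inside the annotated gene (10439968 to 10448327), and thus downstream of that outermost start. The SRM copy lies at chr1:11060200-11060229 on the minus strand, 199 bases before the start. A match is a description of letters, and binding was not measured. The first 50 transcribed bases of the same windows were rich in G and C: 80% and 72% at the starts of ODC1, 82% for SRM, 82% for OAZ2 and 76% for SMS, against 62% for OAZ1, 64% for SAT1 and a median of 60% over all windows. The 3 windows of AMD1 had 72%, 56% and 56%.

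RNA libraries held 10300000 to 43300000 counts (median 14500000) and footprint libraries 6220000 to 15200000 (median 9480000). Values are given as scaled CPM, the count of a gene relative to the total of its library after the scaling between libraries of 1 assay. They depend on gene length and, the markers below apart, are compared here between samples of 1 gene only. The marker values are CPM of the library total, without that scaling. Because of the scaling, higher and lower are relative to the bulk of the genes. A change shared by most genes would not show. Markers of K562 summed to 1536 to 2019 CPM of RNA in every library, against 34.8 to 46.6 CPM for markers of other cells, most of it EPCAM. The largest part of the K562 sum was TFRC, at 633 to 1103 CPM. HBG1, also listed as a K562 marker, was nearly absent, at 0 to 0.289 CPM. MPO and MS4A1 had no RNA count in any library. The repressed gene behaved as labelled: DDX3X was at 175 and 185 scaled CPM of RNA in sgDDX3 cells at day 0, against 215 and 203 in sgGal4 cells. At day 3 it was at 39.0 and 33.7 in sgDDX3 cells, against 185 and 174 in sgGal4 cells, and at day 14 at 134 and 101 in sgDDX3 cells, against 201 and 187 in sgGal4 cells. The libraries are of whole cultures, so fewer repressed cells and weaker repression in each cell cannot be told apart at day 14.

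ODC1, on chromosome 2 at 10439968 to 10448327 of GRCh38, had fewer footprints with sgDDX3 at both later days, while its RNA did not pass between the guides at any day. Its RNA was at 267 and 265 scaled CPM in sgDDX3 cells at day 0, against 291 and 289 in sgGal4 cells. At day 3 it was at 259 and 258 in sgDDX3 cells, against 279.7 and 296 in sgGal4 cells. At day 14 it was at 267 and 222 in sgDDX3 cells, against 258 and 252 in sgGal4 cells. The sgDDX3 libraries lay below the sgGal4 libraries at days 0 and 3 by about the same amount, and the groups overlapped at day 14. None of the RNA differences passed the test (log2 difference -0.13 ± 0.08, SE, at day 0, -0.15 ± 0.08 at day 3 and -0.06 ± 0.08 at day 14; adjusted p of 0.999, 0.195 and 0.678 by the quasi-likelihood test of edgeR). The 95% intervals of the RNA difference ran from -0.30 to -0.01 at day 3 and from -0.21 to 0.09 at day 14.

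Footprints of ODC1 were at 156 and 145 scaled CPM in sgDDX3 cells at day 0, against 175 and 161 in sgGal4 cells. At day 3 they were at 65.8 and 56.7 in sgDDX3 cells, against 201 and 211 in sgGal4 cells. At day 14 they were at 106 and 92.9 in sgDDX3 cells, against 208 and 196 in sgGal4 cells. The sgDDX3 libraries lay below the sgGal4 libraries at every day, at day 0 too, but the gap at days 3 and 14 was many times the spread within a group. The means were 61.2 ± 6.49 in sgDDX3 cells and 206 ± 7.01 in sgGal4 cells at day 3 (SD, n = 2 each), 3.37-fold lower, and 99.6 ± 9.40 against 202 ± 8.06 at day 14, 2.03-fold lower. The log2 difference was -0.16 ± 0.10 at day 0 (adjusted p = 1 by edgeR), -1.75 ± 0.11 at day 3 (adjusted p = 2.4e-06) and -1.02 ± 0.10 at day 14 (adjusted p = 0.000186). Of the 19780 genes tested in footprints, 3.8% passed at day 3 and 3.4% at day 14. ODC1 had rank 2 by p at day 3 and rank 13 at day 14, with rank 55 and rank 189 from the lowest log2 difference.

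**Figure D1:**
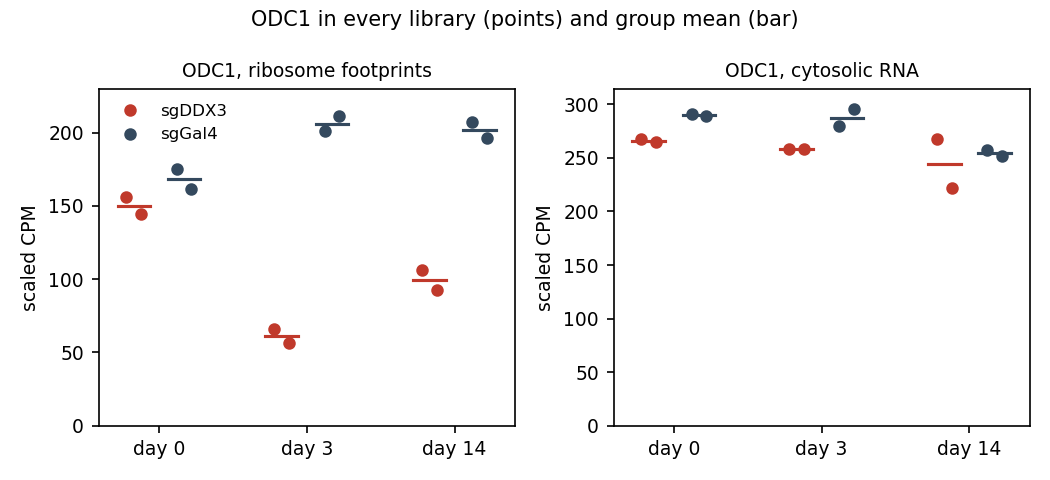
Scaled CPM of ODC1 (vertical axes, from 0) in footprints (left) and cytosolic RNA (right) by day, with sgDDX3 left of sgGal4; points are the 2 libraries of a group and bars their means. The sgDDX3 footprints drop to 65.8 and 56.7 at day 3 and stand at 106 and 92.9 at day 14, against 196 to 211 in sgGal4 cells at those days, while the RNA stays between 222 and 296 in both guides.

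The footprints of ODC1 per unit of its RNA gave 0.565 in sgDDX3 cells and 0.580 in sgGal4 cells at day 0. At day 3 the ratio was 0.237 in sgDDX3 cells and 0.717 in sgGal4 cells, and at day 14 it was 0.407 in sgDDX3 cells and 0.792 in sgGal4 cells. Each ratio divides the footprint mean by the RNA mean of a guide and day and carries no SD. Translational efficiency is this ratio compared between the guides, and its test is the guide-by-assay term of 1 model over all 24 libraries. The efficiency of ODC1 was lower with sgDDX3, by a log2 difference of -1.60 ± 0.13 at day 3 (adjusted p = 9.09e-09 by edgeR) and of -0.96 ± 0.13 at day 14 (adjusted p = 8.65e-05). At day 0 it was -0.04 ± 0.12. Of the 14853 genes tested, 5.14% passed at day 3 and 1.75% at day 14. ODC1 stood at rank 8 by p at day 3 and rank 11 at day 14. The calls of ODC1 in footprints and efficiency at days 3 and 14 held under every alternative that was run, with a footprint difference of -1.89 to -1.65 at day 3 and -1.12 to -0.93 at day 14.

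A guide-by-day term asked whether the guide difference of ODC1 itself changed between days. In footprints the day 3 difference minus that of day 0 was -1.59 ± 0.15 (adjusted p = 0.000423 by edgeR, where 0.121% of all genes passed). In efficiency it was -1.56 ± 0.18 (adjusted p = 1.41e-05, where 1.8% passed). Between day 14 and day 0 the interaction was -0.85 ± 0.14 in footprints (adjusted p = 0.0368, where 0.106% passed) and -0.92 ± 0.18 in efficiency (adjusted p = 0.0222, where 0.148% passed). Between day 14 and day 3 it was 0.74 ± 0.15 in footprints (adjusted p = 0.0706, where 0.126% passed) and 0.64 ± 0.18 in efficiency (adjusted p = 0.413, where 0% passed). The smaller gap at day 14 thus did not pass as a change of the guide difference. In RNA no member passed such a change by edgeR between days 3 and 0, 14 and 0 or 14 and 3 (2, 1 and 1 members at an unadjusted p under 0.05, and 0 in each with DESeq2), where 3.7%, 4.46% and 0.164% of all genes passed. The footprint interaction of day 14 with day 0 lost its call without any 1 of the 8 footprint libraries of those days (-0.96 to -0.76, adjusted p of 0.0511 to 0.214). The efficiency interaction of ODC1 lost it in fits without 1 library, with an adjusted p of 0.0531 to 0.104. These libraries were, among footprints, sgDDX3 replicate 1 and sgGal4 replicates 1 and 2 at day 0 and sgDDX3 replicate 2 at day 14. Among RNA they were both libraries of each guide at day 0, and at day 14 sgDDX3 replicate 1 and sgGal4 replicates 1 and 2. The footprint interaction of day 14 with day 3 gained a call with DESeq2 (0.75, adjusted p = 0.00635), with the replicate block (0.74, adjusted p = 0.0422), with no low-count filter (0.77, adjusted p = 0.000362), without sgDDX3 footprint replicate 1 at day 3 (0.87, adjusted p = 0.0445) and without sgDDX3 footprint replicate 2 at day 14 (0.83, adjusted p = 0.0414).

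Over time, ODC1 footprints passed the test in the sgDDX3 cells and not in the sgGal4 cells, a difference whose own test is the guide-by-day term above. Their ODC1 footprints fell by 1.30 ± 0.11 on the log2 scale at day 3 against day 0 (adjusted p = 4.27e-05 by edgeR, where 7.55% of all genes passed). They were still lower at day 14 against day 0 (-0.59 ± 0.10; adjusted p = 0.00399, where 7.78% passed), and rose by 0.71 ± 0.11 at day 14 against day 3 (adjusted p = 0.00585, where 1.82% passed). Without sgDDX3 footprint replicate 1 at day 0 the change at day 14 against day 0 was -0.54 (adjusted p = 0.0519), and without sgDDX3 footprint replicate 1 at day 14 the change against day 3 was 0.61 (adjusted p = 0.0518). Efficiency in sgDDX3 cells moved by -1.26 ± 0.13 at day 3 against day 0 (adjusted p = 9.01e-07, where 4.58% passed) and by 0.79 ± 0.13 at day 14 against day 3 (adjusted p = 0.00228, where 0.525% passed). At day 14 against day 0 it was -0.47 ± 0.13 (adjusted p = 0.0458, where 2.57% passed). That call was lost with no low-count filter (adjusted p = 0.0507) and without any 1 of 6 sgDDX3 libraries (-0.52 to -0.33, adjusted p of 0.0745 to 0.249). These were both footprint and both RNA libraries of day 0, footprint replicate 2 of day 14 and RNA replicate 1 of day 14. In sgGal4 cells the ODC1 footprints differed by 0.29 ± 0.10 at day 3 against day 0 (adjusted p = 0.174) and by 0.26 ± 0.10 at day 14 against day 0 (adjusted p = 0.190), and neither passed. ODC1 efficiency in sgGal4 cells differed by 0.31 ± 0.12 at day 3 (adjusted p = 1) and by 0.45 ± 0.12 at day 14 (adjusted p = 0.224) against day 0, about the size of the -0.47 in sgDDX3 cells at day 14. With DESeq2 the difference at day 14 in sgGal4 cells passed (0.46, adjusted p = 0.035). The guide-by-day term of -0.92 thus holds a lower efficiency in sgDDX3 cells and a higher value in sgGal4 cells.

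The antizyme genes, whose products send ODC1 to the proteasome, did not pass between the guides in any assay. OAZ1, on chromosome 19, had RNA at 692 and 769.6 scaled CPM in sgDDX3 cells at day 3, against 787 and 827 in sgGal4 cells. Its footprints were at 184 and 157 in sgDDX3 cells at day 3, against 187 and 164 in sgGal4 cells, and at 162 and 161 in sgDDX3 cells at day 14, against 176 and 153 in sgGal4 cells. The footprint groups overlapped at both days, and the 95% interval of the log2 difference ran from -0.27 to 0.18 at day 3 and from -0.25 to 0.20 at day 14. Its ratio of footprints to RNA stayed between 0.202 and 0.233 in sgDDX3 cells and between 0.206 and 0.217 in sgGal4 cells over the 3 days. OAZ2, on chromosome 15, had footprints at 105 and 73.5 in sgDDX3 cells at day 3, against 74.8 and 68.0 in sgGal4 cells, groups that overlapped (0.31 ± 0.17; adjusted p = 0.33 by edgeR; 95% interval from -0.01 to 0.64). Counts over a whole gene do not show how many ribosomes pass the frameshift of an antizyme mRNA.

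The antizyme inhibitor gene AZIN1, on chromosome 8 at 102826302 to 102864200, had more footprints with sgDDX3 at both later days. Its footprints were at 107 and 107 scaled CPM in sgDDX3 cells at day 0, against 104 and 104 in sgGal4 cells. At day 3 they were at 117 and 125 in sgDDX3 cells, against 94.04 and 94.98 in sgGal4 cells, and at day 14 at 123 and 121 in sgDDX3 cells, against 97.5 and 94.5 in sgGal4 cells. All sgDDX3 libraries lay above the sgGal4 libraries of the same day, by a larger gap at the later days. That growth of the footprint gap did not pass its own test. The guide-by-day term was 0.32 ± 0.11 for day 3 minus day 0 (adjusted p = 0.302 by edgeR). For day 14 minus day 0 it was 0.31 ± 0.11 (adjusted p = 0.391). AZIN1 footprints were higher with sgDDX3 at day 3 (0.36 ± 0.08; adjusted p = 0.0305 by edgeR) and at day 14 (0.35 ± 0.08; adjusted p = 0.0313). Each of these calls was lost without any 1 of the 4 libraries of its day (0.31 to 0.37, adjusted p of 0.0559 to 0.215), without the low-count filter (adjusted p of 0.183 and 0.133) and with that day fitted alone (adjusted p of 0.128 and 0.229).

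AZIN1 RNA went the other way at day 3: it was at 129 and 121 scaled CPM in sgDDX3 cells, against 148 and 147 in sgGal4 cells, which is -0.24 ± 0.07 on the log2 scale (adjusted p = 0.0222 by edgeR). This call was lost without sgDDX3 RNA replicate 2 at day 3 (-0.19, adjusted p = 0.138), without either sgGal4 RNA library of that day (-0.23 each, adjusted p of 0.124 and 0.101) and with that day fitted alone (-0.23, adjusted p = 0.0639). The ratio of AZIN1 footprints to RNA was 0.692 in sgDDX3 cells and 0.651 in sgGal4 cells at day 0, 0.966 in sgDDX3 cells and 0.640 in sgGal4 cells at day 3, and 0.868 in sgDDX3 cells and 0.704 in sgGal4 cells at day 14. Efficiency was higher with sgDDX3 at day 3 by 0.59 ± 0.10 (adjusted p = 0.000206), a call that held under all 15 alternatives, and stood at 0.30 ± 0.10 at day 14 (adjusted p = 0.123). Its change of the guide difference between day 3 and day 0 was 0.50 ± 0.14 (adjusted p = 0.0544), which passed with DESeq2 only (0.49, adjusted p = 0.0275). Between days, AZIN1 RNA fell by 0.31 ± 0.07 in sgDDX3 cells at day 3 against day 0 (adjusted p = 0.00246, where 20.5% of all genes passed). Its efficiency rose there by 0.48 ± 0.10 (adjusted p = 0.00265), a call lost with no low-count filter (0.46, adjusted p = 0.0524). AZIN1 RNA changed by -0.12 ± 0.07 in sgGal4 cells at day 3 (adjusted p = 0.339) and by -0.14 ± 0.07 in sgDDX3 cells at day 14 (adjusted p = 0.141) against day 0. The guide-by-day term of AZIN1 RNA was -0.19 ± 0.10 for day 3 minus day 0 (adjusted p = 0.338 by edgeR). For day 14 minus day 0 it was 0.09 ± 0.10 (adjusted p = 0.696), and neither passed. In sgGal4 cells AZIN1 RNA fell by 0.23 ± 0.07 at day 14 against day 0 (adjusted p = 0.0247, where 16.2% of all genes passed). That was lost with no low-count filter (-0.21, adjusted p = 0.0983) and without any 1 of the 4 libraries (-0.26 to -0.20, adjusted p of 0.0863 to 0.174).

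AZIN2, on chromosome 1, had only 28 to 135 RNA counts and 25 to 67 footprint counts per library. Its RNA was at 1.67 and 1.91 scaled CPM in sgDDX3 cells at day 0, 3.62 and 3.55 at day 3 and 3.99 and 3.80 at day 14. In sgGal4 cells it was at 2.60 and 2.56 at day 0, 3.08 and 3.95 at day 3 and 3.46 and 2.17 at day 14. In sgDDX3 cells both later days lay above day 0, and the RNA rose by 1.02 ± 0.25 at day 3 (adjusted p = 0.00599 by edgeR, where 20.5% of all genes passed) and by 1.13 ± 0.27 at day 14 (adjusted p = 0.00311, where 26.2% of all genes passed) against day 0. At day 0 the sgDDX3 libraries lay below the sgGal4 libraries. In sgGal4 cells the RNA changed by 0.38 ± 0.24 at day 3 (adjusted p = 0.386) and by 0.01 ± 0.26 at day 14 (adjusted p = 0.989) against day 0. The guide-by-day term of AZIN2 RNA was 0.63 ± 0.35 for day 3 minus day 0 (adjusted p = 0.391). For day 14 minus day 0 it was 1.13 ± 0.37 (adjusted p = 0.0917), and neither passed. The day 3 call of AZIN2 was lost without sgDDX3 RNA replicate 1 at day 0 (0.91, adjusted p = 0.0883) and without sgDDX3 RNA replicate 1 at day 3 (1.00, adjusted p = 0.0582). Between the guides AZIN2 passed in no assay at any day, with 95% intervals that ran from -0.03 to 1.28 for footprints at day 3 and, at the widest, from -0.08 to 1.73 for efficiency at day 0.

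SRM, the spermidine synthase gene on chromosome 1 at 11054589 to 11060018, had fewer footprints but more RNA in sgDDX3 cells at day 3. Its footprints were at 87.0 and 92.5 scaled CPM in sgDDX3 cells at day 0, against 93.9 and 97.5 in sgGal4 cells. At day 3 they were at 67.0 and 70.9 in sgDDX3 cells, against 89.9 and 94.2 in sgGal4 cells, and at day 14 at 76.1 and 69.9 in sgDDX3 cells, against 91.2 and 74.9 in sgGal4 cells. The sgDDX3 libraries lay below the sgGal4 libraries at days 0 and 3, with the larger gap at day 3, and the groups overlapped at day 14. The change of the footprint gap between day 3 and day 0 was -0.32 ± 0.14 and did not pass (adjusted p = 0.425 by edgeR). Footprints differed by -0.42 ± 0.10 at day 3 (adjusted p = 0.0434 by edgeR) and by -0.19 ± 0.10 at day 14 (adjusted p = 0.388). The day 3 call of SRM was lost without any 1 of the 4 footprint libraries of that day (-0.46 to -0.38, adjusted p of 0.099 to 0.212) and with that day fitted alone (-0.43, adjusted p = 0.0869).

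SRM RNA was at 179 and 206 scaled CPM in sgDDX3 cells at day 3, against 154 and 167 in sgGal4 cells (0.26 ± 0.09; adjusted p = 0.0494 by edgeR). That call, close to the threshold, was lost with the replicate block (0.26, adjusted p = 0.0689), without sgDDX3 RNA replicate 2 (0.16, adjusted p = 0.346), without sgGal4 RNA replicate 1 (0.21, adjusted p = 0.298) and without sgGal4 RNA replicate 2 (0.32, adjusted p = 0.0897). At day 14 the RNA was at 172 and 138 in sgDDX3 cells, against 146 and 149.8 in sgGal4 cells, and the groups overlapped. The ratio of SRM footprints to RNA was 0.514 in sgDDX3 cells and 0.544 in sgGal4 cells at day 0, 0.358 in sgDDX3 cells and 0.574 in sgGal4 cells at day 3, and 0.472 in sgDDX3 cells and 0.562 in sgGal4 cells at day 14. Efficiency was -0.68 ± 0.14 at day 3 (adjusted p = 0.00325), lower with sgDDX3 under all 15 alternatives, and -0.25 ± 0.14 at day 14 (adjusted p = 0.515). The change of this guide difference between day 3 and day 0 was -0.60 ± 0.20 and did not pass (adjusted p = 0.163). Over time in sgDDX3 cells, SRM footprints fell by 0.38 ± 0.10 (adjusted p = 0.0414) and efficiency by 0.52 ± 0.14 (adjusted p = 0.0336) at day 3 against day 0. The footprint call was lost with DESeq2 (adjusted p = 0.0737) and without any 1 of the 4 libraries (-0.42 to -0.33, adjusted p of 0.0735 to 0.234). The efficiency call was lost without any 1 of 7 of the 8 libraries, RNA replicate 1 of day 3 being the other (adjusted p of 0.0595 to 0.164). SRM RNA in sgDDX3 cells fell by 0.31 ± 0.09 at day 14 against day 3 (adjusted p = 0.0435, where 5.57% of all genes passed). This was lost without either day 3 library (-0.41 and -0.21, adjusted p of 0.0609 and 0.211), without day 14 replicate 2 (-0.16, adjusted p = 0.233), and, at adjusted p of 0.0507 and 0.0652, with RLE scaling and the replicate block.

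AMD1 and SMS did not pass between the guides in any assay. AMD1, on chromosome 6, had footprints at 32.2 and 41.2 scaled CPM in sgDDX3 cells at day 3, against 27.1 and 28.1 in sgGal4 cells. Its RNA at day 3 was at 105 and 100.2 in sgDDX3 cells, against 81.2 and 95.7 in sgGal4 cells. The groups did not overlap in either assay, and the differences were 0.42 ± 0.13 in footprints (adjusted p = 0.0877 by edgeR) and 0.23 ± 0.08 in RNA (adjusted p = 0.0667). The AMD1 footprints passed without sgDDX3 footprint replicate 1 at day 3 (0.55, adjusted p = 0.0361), and the RNA without sgGal4 RNA replicate 2 at day 3 (0.35, adjusted p = 0.026). Its efficiency differed by 0.19 ± 0.15 (adjusted p = 0.529, 95% interval from -0.10 to 0.49). SMS, on chromosome X, had footprints at 103 and 88.6 in sgDDX3 cells at day 3, against 94.7 and 90.5 in sgGal4 cells, groups that overlapped. At day 14 its footprints were at 81.5 and 84.6 in sgDDX3 cells, below 88.1 and 92.6 in sgGal4 cells (adjusted p = 0.576 by edgeR). The 95% interval of the footprint log2 difference ran from -0.14 to 0.24 at day 3 and from -0.31 to 0.07 at day 14. SMS RNA at day 3 was at 153 and 159 in sgDDX3 cells, above 140 and 151 in sgGal4 cells (adjusted p = 0.468).

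**Figure D2:**
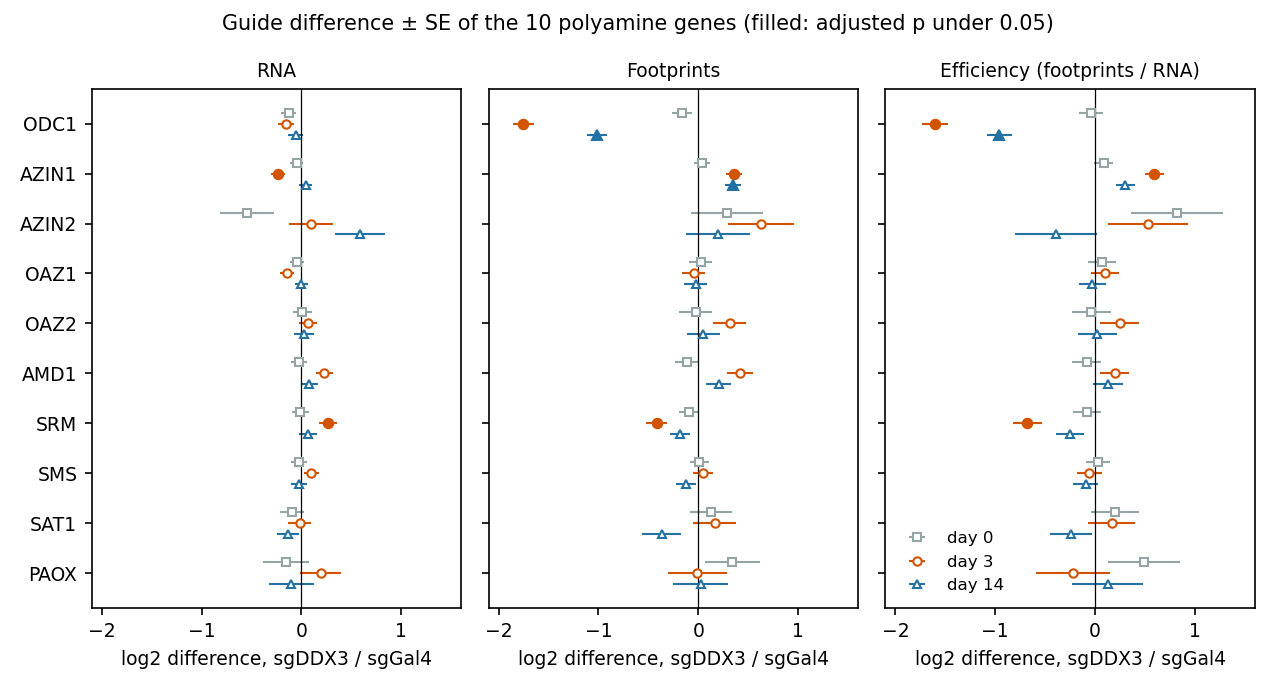
Log2 difference of sgDDX3 over sgGal4 with its SE (horizontal axes) for the 10 genes (rows) in RNA, footprints and efficiency; squares are day 0, circles day 3 and triangles day 14, and filled symbols passed at an adjusted p under 0.05. ODC1 stands far left in footprints (-1.75 and -1.02) and efficiency (-1.60 and -0.96) at days 3 and 14, AZIN1 right at day 3 (0.36 and 0.59) and SRM left at day 3 (-0.42 and -0.68), while no RNA difference of a filled symbol exceeds 0.26 in size.

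SAT1 RNA rose with time in both guides, and neither catabolic gene passed between the guides. SAT1, the spermidine and spermine acetyltransferase gene on chromosome X at 23783173 to 23786210, had RNA at 15.0 and 15.0 scaled CPM in sgDDX3 cells at day 0, 17.6 and 17.9 at day 3 and 27.6 and 28.7 at day 14. In sgGal4 cells it was at 16.8 and 15.2 at day 0, 19.7 and 15.2 at day 3 and 31.2 and 30.6 at day 14. In both guides every day 14 library lay above every library of the earlier days. SAT1 RNA rose at day 14 against day 0 by 0.91 ± 0.12 in sgDDX3 cells (adjusted p = 1.02e-05 by edgeR, where 26.2% of all genes passed) and by 0.95 ± 0.11 in sgGal4 cells (adjusted p = 1.58e-05, where 16.2% passed). Against day 3 it rose by 0.66 ± 0.12 in sgDDX3 cells (adjusted p = 0.00163, where 5.57% passed) and by 0.78 ± 0.11 in sgGal4 cells (adjusted p = 0.000169, where 0.755% passed). The difference between both guides in the rise from day 0 was -0.04 ± 0.16 (adjusted p = 0.934, 95% interval from -0.36 to 0.28).

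Footprints of SAT1 were at 12.5 and 16.9 scaled CPM in sgDDX3 cells at day 14, against 17.3 and 20.5 in sgGal4 cells. They rested on 68 to 189 counts per library. They rose at day 14 against day 0 by 1.17 ± 0.20 in sgGal4 cells (adjusted p = 0.00937 by edgeR, where 2.47% of all genes passed), a call lost without sgGal4 footprint replicate 1 at day 0 (0.98, adjusted p = 0.111) and without sgGal4 footprint replicate 2 at day 14 (1.06, adjusted p = 0.0596). In sgDDX3 cells the same change was 0.68 ± 0.21 (adjusted p = 0.0674). The difference between both guides in this change was -0.49 ± 0.29 and did not pass (adjusted p = 0.637 by edgeR). The guide difference at day 14 was -0.37 ± 0.19 for SAT1 footprints (adjusted p = 0.36, 95% interval from -0.74 to 0.01). PAOX, on chromosome 10, had 34 to 161 RNA counts and 19 to 52 footprint counts per library and passed in no comparison of the guides. Its RNA lay between 2.32 and 5.13 in sgDDX3 cells and between 3.06 and 4.23 in sgGal4 cells over all days.

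AMD1 RNA also moved with time in both guides. It was at 112 and 115 scaled CPM in sgDDX3 cells at day 0, 105 and 100.2 at day 3 and 81.5 and 90.4 at day 14. In sgGal4 cells it was at 116 and 115 at day 0, 81.2 and 95.7 at day 3 and 79.5 and 83.0 at day 14. At day 14 AMD1 RNA was lower than at day 0 by 0.40 ± 0.08 in sgDDX3 cells (difference -0.40; adjusted p = 0.00114 by edgeR, where 26.2% of all genes passed) and by 0.50 ± 0.08 in sgGal4 cells (difference -0.50; adjusted p = 0.000364, where 16.2% passed). At day 3 against day 0 AMD1 RNA differed by -0.14 ± 0.08 in sgDDX3 cells and did not pass (adjusted p = 0.247). The guide-by-day term of AMD1 RNA for day 3 minus day 0 was 0.25 ± 0.12 and did not pass either (adjusted p = 0.278). The day 3 libraries of sgGal4 already lay below day 0 (-0.39 ± 0.08; adjusted p = 0.00633, where 5.68% of all genes passed), a call lost without either sgGal4 RNA library of day 0 (-0.40 each, adjusted p of 0.0821 and 0.0658) and without sgGal4 RNA replicate 1 at day 3 (-0.28, adjusted p = 0.213).

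**Figure D3:**
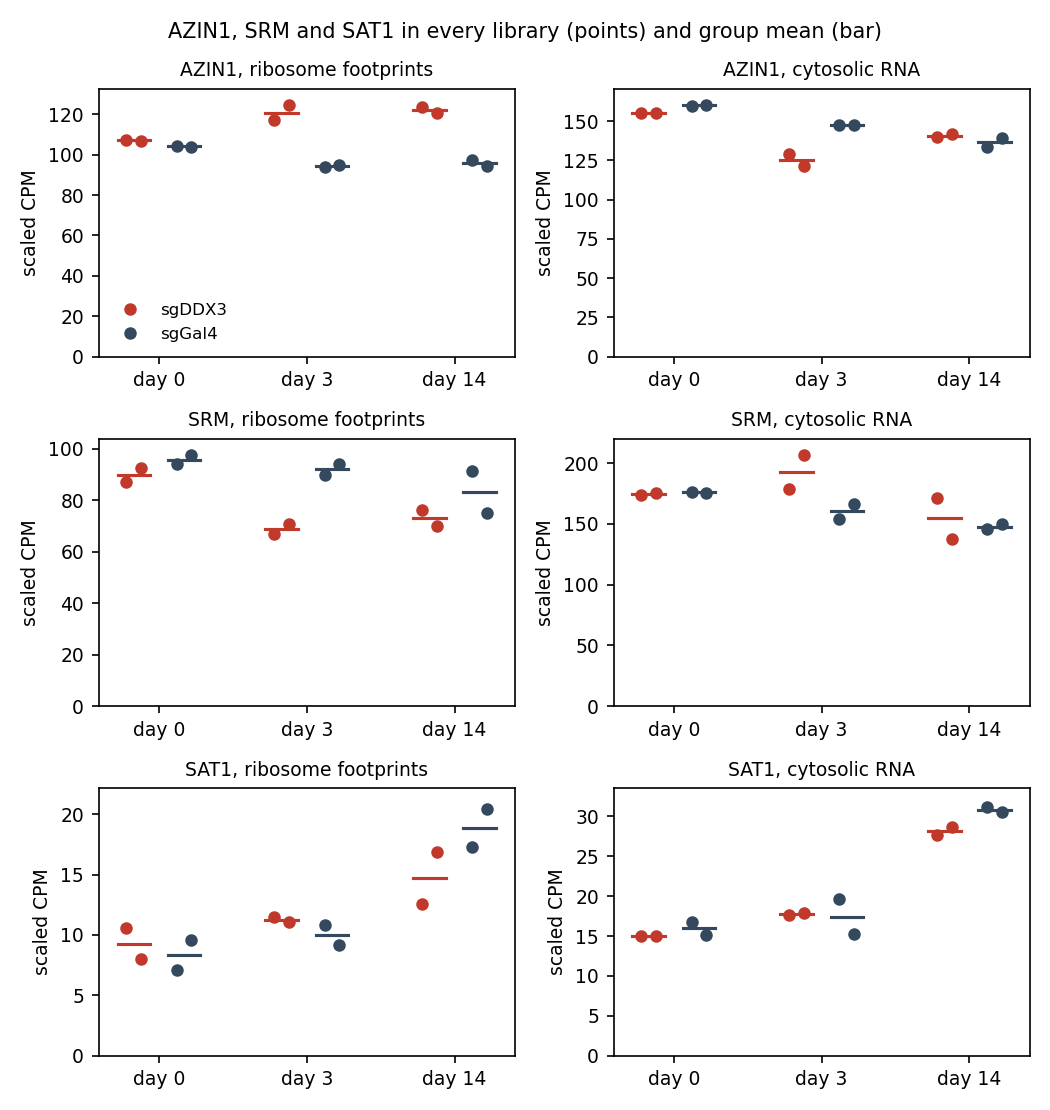
Scaled CPM (vertical axes, from 0) of AZIN1, SRM and SAT1 in footprints (left) and cytosolic RNA (right) by day, with sgDDX3 left of sgGal4; points are libraries and bars group means. AZIN1 footprints stand at 117 to 125 in sgDDX3 cells at days 3 and 14, above 94.04 to 97.5 in sgGal4 cells, SRM footprints at day 3 at 67.0 and 70.9 below 89.9 and 94.2, and SAT1 RNA climbs to 27.6 to 31.2 at day 14 in both guides.

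Counted over the 10 genes, 1 was higher and 2 were lower with sgDDX3 in footprints at day 3, where 1.55% of all genes were higher and 2.25% lower. At day 14, 1 was higher and 1 lower in footprints, where 2.11% of all genes were higher and 1.29% lower. In efficiency 1 was higher and 2 lower at day 3, where 0.7% of all genes were higher and 4.44% lower, and 1 was lower at day 14, where 1.37% were lower. In RNA 1 was higher and 1 lower at day 3, where 14.1% of all genes passed, 7.68% higher and 6.39% lower. At day 14 none of the 10 passed by edgeR (1 at an unadjusted p under 0.05, and 0 with DESeq2), where 14.6% of all genes passed. At day 0 none of the 10 passed in any assay by edgeR, 0 reached an unadjusted p under 0.05, and DESeq2 called 0. Of all genes, 0.00547% passed there in RNA, 0.0101% in footprints and 0.00673% in efficiency. The median log2 difference of the 10 genes at day 3 was 0.08 in RNA, 0.10 in footprints and 0.13 in efficiency, against -0.01, 0.02 and 0.05 over all genes tested. Guide comparisons of the 3 days share no libraries, but footprint and efficiency values of 1 day share the footprint libraries.

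**Figure D4:**
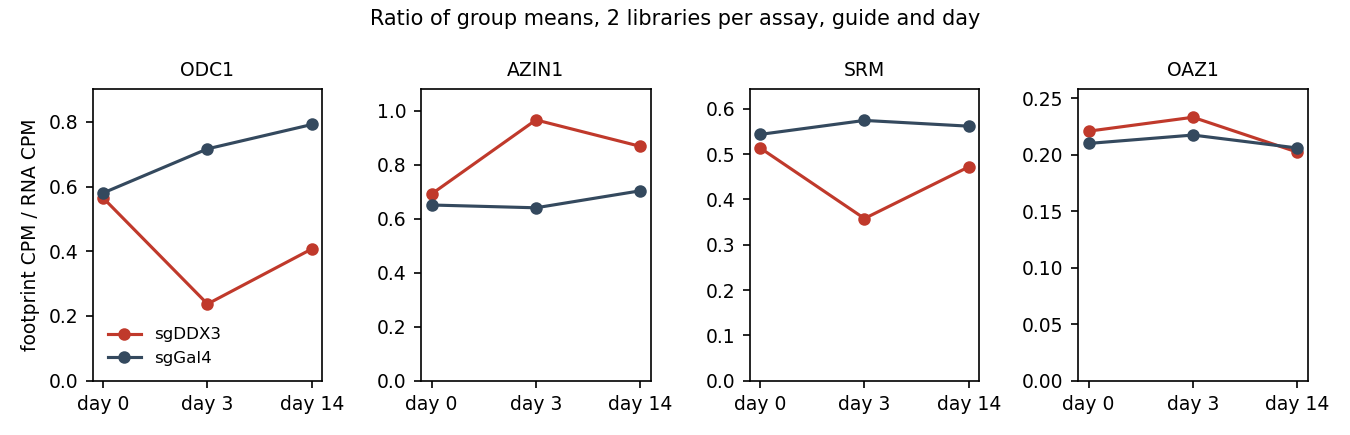
Ratio of the mean scaled footprint CPM to the mean scaled RNA CPM (vertical axes, from 0, each gene on its own scale) of ODC1, AZIN1, SRM and OAZ1 by day in sgDDX3 and sgGal4 cells, 2 libraries per assay, guide and day. The guides start together at day 0 (ODC1 0.565 in sgDDX3 cells and 0.580 in sgGal4 cells), part at day 3 for ODC1, AZIN1 and SRM, and stay within 0.202 to 0.233 for OAZ1.

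The wider pathway was described with 44 more genes of polyamine synthesis, catabolism, transport, ornithine and methionine supply, hypusine formation and ODC1 regulation, of which 31 could be tested in RNA, 32 in footprints and 30 in efficiency. The list was chosen with earlier results of these data known, as were the 10 genes. At day 3, 3 were higher and 3 lower in RNA, 2 higher and 1 lower in footprints, and 0 higher and 3 lower in efficiency. Of all genes, 7.68% were higher and 6.39% lower there in RNA, 1.55% and 2.25% in footprints, and 0.7% and 4.44% in efficiency. At day 14, 4 were higher and 7 lower in RNA, 2 higher and 3 lower in footprints, and 0 higher and 1 lower in efficiency. Of all genes, 14.6% passed there in RNA in either direction, 2.11% were higher and 1.29% lower in footprints, and 1.37% were lower in efficiency. Not every call counted here is given with its values below. The polyamine transporter gene ATP13A3 passed in both RNA and efficiency. Its RNA was at 254 and 221 scaled CPM in sgDDX3 cells at day 3, against 166 and 169 in sgGal4 cells, while its footprints were at 35.0 and 35.6 in sgDDX3 cells, against 44.5 and 40.5 in sgGal4 cells. RNA of ATP13A3 was higher by 0.51 ± 0.08 at day 3 (adjusted p = 0.000199 by edgeR) and by 0.43 ± 0.08 at day 14 (adjusted p = 0.00114), and its efficiency was -0.78 ± 0.14 at day 3 (adjusted p = 0.000691) and -0.68 ± 0.14 at day 14 (adjusted p = 0.00713). The last of these was -0.70 with day 14 fitted alone (adjusted p = 0.0556).

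MYC, the transcription factor that binds the E-box, was lower with sgDDX3 in RNA and footprints. Its RNA was at 283 and 309.6 scaled CPM in sgDDX3 cells at day 3, against 365 and 399 in sgGal4 cells, and at 288 and 278 in sgDDX3 cells at day 14, against 458 and 414 in sgGal4 cells. The log2 difference of MYC RNA was -0.37 ± 0.07 at day 3 (adjusted p = 0.00132 by edgeR) and -0.62 ± 0.07 at day 14 (adjusted p = 6.38e-06). In MYC footprints it was -0.49 ± 0.10 at day 3 (adjusted p = 0.0238) and -0.56 ± 0.10 at day 14 (adjusted p = 0.0113). The footprint calls of MYC were lost without any 1 of the 4 libraries of day 3 (adjusted p of 0.0542 to 0.154), and at day 14 without sgDDX3 footprint replicate 1 (-0.51, adjusted p = 0.112) and without sgGal4 footprint replicate 1 (-0.40, adjusted p = 0.0844). ODC1 RNA did not pass at either day, as given above, and the part of MYC in any value here was not tested.

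ASS1, PYCR1 and ARG2, enzymes around ornithine and arginine, were lower in RNA at day 14. ASS1, for argininosuccinate synthase, was at 22.9 and 43.2 scaled CPM in sgDDX3 cells at day 14, against 79.9 and 82.1 in sgGal4 cells (-1.30 ± 0.20; adjusted p = 0.00012 by edgeR). PYCR1, for a proline synthesis enzyme, was at 157 and 155 in sgDDX3 cells, against 204 and 208 in sgGal4 cells (-0.40 ± 0.07; adjusted p = 0.000457). ARG2, for the mitochondrial arginase that yields ornithine, was at 4.5 and 4.43 in sgDDX3 cells at day 14, against 8.17 and 8.51 in sgGal4 cells (-0.91 ± 0.18; adjusted p = 0.00132). SLC3A2, the shared subunit of amino acid transporters, was at 193 and 210.2 in sgDDX3 cells, against 281 and 280.4 in sgGal4 cells (-0.48 ± 0.07; adjusted p = 0.000106). OAT, for ornithine aminotransferase, which exchanges ornithine with the precursor of proline, had footprints at 95.3 and 89.3 in sgDDX3 cells at day 14, against 57.3 and 65.0 in sgGal4 cells (0.60 ± 0.11; adjusted p = 0.0119). The OAT call was lost without sgDDX3 footprint replicate 1 (0.54, adjusted p = 0.116), without sgGal4 footprint replicate 1 (0.51, adjusted p = 0.0936) and with that day fitted alone (0.57, adjusted p = 0.054). The RNA calls of ASS1, PYCR1, ARG2 and SLC3A2 at day 14 held under all 10 alternatives.

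ADI1, an enzyme of the pathway that recovers methionine from the by-product of spermidine and spermine synthesis, was higher with sgDDX3 in RNA and footprints. Its RNA was at 49.6 and 47.4 scaled CPM in sgDDX3 cells at day 14, against 36.2 and 33.7 in sgGal4 cells (0.48 ± 0.09; adjusted p = 0.00112 by edgeR), and its footprints at 43.1 and 37.2 in sgDDX3 cells, against 24.9 and 29.0 in sgGal4 cells (0.58 ± 0.11; adjusted p = 0.0146). The footprint call of ADI1 was lost without sgDDX3 footprint replicate 1 (0.46, adjusted p = 0.17), without sgGal4 footprint replicate 1 (0.47, adjusted p = 0.107) and with that day fitted alone (0.56, adjusted p = 0.105). The mitochondrial ornithine carrier gene SLC25A15 was lower in efficiency at day 3 (-0.62 ± 0.15; adjusted p = 0.00934), a call lost without sgDDX3 footprint replicate 2 (-0.64, adjusted p = 0.0529) and without sgGal4 RNA replicate 1 (-0.52, adjusted p = 0.0654). The other genes of the wider list that passed had calls that ended in at least 1 alternative. The vesicular polyamine transporter gene SLC18B1 had -0.55 ± 0.16 in efficiency at day 3 (adjusted p = 0.0455), lost in 11 of 15 alternatives, DESeq2 among them (adjusted p = 0.104).

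In RNA at day 3, EIF5A2, a second gene of the factor that carries the spermidine-derived hypusine, had 0.50 ± 0.15 (adjusted p = 0.0297 by edgeR), lost with DESeq2 (adjusted p = 0.0545) and without any 1 of the 4 libraries (0.46 to 0.56, adjusted p of 0.0808 to 0.144). DHPS, for the first enzyme of hypusine formation, had -0.23 ± 0.08 (adjusted p = 0.0413), lost in 7 of 10 alternatives and without any 1 library of that day (adjusted p of 0.0904 to 0.205). In RNA at day 14, SAT2, a relative of SAT1, had 0.90 ± 0.22 (adjusted p = 0.00655), and 0.65 without sgDDX3 RNA replicate 1 (adjusted p = 0.126). HDAC10, for an N8-acetylspermidine deacetylase, had 0.78 ± 0.25 (adjusted p = 0.0362). It was 0.33 without sgDDX3 RNA replicate 1 (adjusted p = 0.524), 0.61 without sgGal4 RNA replicate 1 (adjusted p = 0.183) and 1.21 without sgGal4 RNA replicate 2 (adjusted p = 0.0517). AHCY, which clears S-adenosylhomocysteine, had -0.26 ± 0.07 (adjusted p = 0.0115), lost without either sgGal4 RNA library of day 14 (adjusted p of 0.0577 and 0.102). MAX, the partner of MYC, had -0.24 ± 0.08 (adjusted p = 0.0444), lost with DESeq2 (adjusted p = 0.0548) and without sgDDX3 RNA replicate 1 or either sgGal4 RNA library of that day (adjusted p of 0.126 to 0.208).

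The genes with the pattern most like ODC1 were ranked by Pearson's r over the 12 footprint libraries among 10203 genes with a symbol and a mean of at least 10 CPM, as a description with no test. The 5 highest were EPN1 (r = 0.986), PRKACA (r = 0.980), STX3 (r = 0.980), NT5DC2 (r = 0.976) and MAPKAPK2 (r = 0.976). Their footprint differences at day 3 ran from -1.55 for NT5DC2 to -0.90 for MAPKAPK2, against -1.75 for ODC1. In the ratio of footprints to RNA over the 6 guide and day groups, the 5 highest of 8639 genes were ARPC2 (r = 0.999), PHF2 (r = 0.997), ETV6 (r = 0.996), GIT1 (r = 0.996) and FAM117B (r = 0.994). Spearman's rho with ODC1 was 0.909 to 0.965 for the 5 genes over the 12 libraries. Over the 6 groups it was 1, the highest possible value, for ARPC2, PHF2 and FAM117B and 0.943 for ETV6 and GIT1, and with 6 points ties leave no order by rho. The points share libraries, and the 2 libraries of a group repeat 1 condition. Among the other members, SRM had r = 0.793 with ODC1 and AZIN1 had r = -0.906 over the 12 footprint libraries.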

How the data were processed

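Whole-number read counts per gene were deposited by the authors, with no normalization, in 1 table for footprints and 1 for cytosolic RNA. The genome build was GRCh38, per the submitters' processing notes, which also name STAR 2.7.5a, Bowtie2 2.4.1, cutadapt 3.4 and DESeq2 without saying what each did. Counting tool, annotation, strand setting and handling of shared reads: not given in the sources used here. ODC1 and its divergent transcript ODC1-DT (13 to 98 RNA counts per library) could share reads, while the listed pseudogenes of OAZ1, AMD1 and SMS held at most 11 counts per library. Of 58037 genes, 45 pseudoautosomal copies on Y were left out and 57992 used. Per the labels' protocols, footprints came from cycloheximide lysates cut with RNase I, and RNA from the Triton lysate after depletion of ribosomal RNA.

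Genes were kept with filterByExpr (minimum count 10), which left 18287 in RNA, 19780 in footprints and 14853 in both, and libraries were scaled with TMM factors within each assay. Tests were quasi-likelihood F-tests of edgeR 4.0.16 (R 4.3.3, limma 3.58.1) with all 12 libraries of an assay, or all 24 for efficiency, so that all groups share 1 estimate of the spread. P-values were adjusted by Benjamini-Hochberg over all genes with a threshold of 0.05. Differences on the log2 scale put sgDDX3 over sgGal4, or the later day over the earlier one, with their SE. The 95% intervals are 1.96 SE on each side. They are approximate, and narrower than intervals from the F-tests would be. Replicates varied with a common biological coefficient of 6.13% (RNA), 9.99% (footprints) and 7.08% (joint model). Counts carry no molecular identifiers, so precision from depth covers counting error only.

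The named genes were all 10 members, those of the 44 further genes that passed between the guides at day 3 or day 14, DDX3X as the check of repression, and the 5 genes most like ODC1. The members, the gene lists and the tests were chosen with earlier results of these data known. Alternatives were other scaling, the newer quasi-likelihood estimate, DESeq2 1.42.0, no low-count filter, a replicate block, the libraries of 1 day alone, and leaving out each library. For the joint model, scaling over the genes kept in both assays was added after seeing the data. The scripts were tested on simulated data. Sequences and gene positions are from RefSeq. Figures used Python 3.11.15, pandas 2.3.3 and matplotlib 3.10.9.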

Additional observations from a re-analysis of the deposited data

Results flagged for a closer look

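For ODC1, the difference between sgDDX3 and sgGal4 cells was not the same at all days by a test of that change itself (interaction of guide and day, edgeR). In footprints the guide difference was lower at day 3 than at day 0 by 1.59 (interaction -1.59) and at day 14 than at day 0 by 0.85 (interaction -0.85). In efficiency it was -1.56 for day 3 minus day 0 and -0.92 for day 14 minus day 0. The interactions of day 14 with day 0 had an adjusted p of 0.0368 in footprints and 0.0222 in efficiency. Both lost their calls in fits without 1 library, as given above. The libraries follow this direction: footprints of ODC1 were at 65.8 and 56.7 scaled CPM in sgDDX3 cells and 201 and 211 in sgGal4 cells at day 3, and at 156 and 145 in sgDDX3 cells and 175 and 161 in sgGal4 cells at day 0. Single libraries far from their group were not looked for, because each group held 2 libraries.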

How the results depend on the processing

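Over the members and all comparisons, 4347 alternative values were computed. Of these, 3952 kept their direction and side of the threshold, 83 lost a call, 26 gained one, 286 changed sign without passing in either setting, and 0 reversed a called direction. Between the guides, ODC1 in footprints and efficiency at days 3 and 14, and AZIN1 and SRM in efficiency at day 3, kept their calls throughout. The guide-by-day calls of ODC1 for day 14 with day 0 did not.

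The count of members called depended more on the setting. In RNA at day 3 it was 2, and 1 with the replicate block, 1 with the libraries of that day alone and 0 to 2 without 1 library. In footprints at day 3 it was 3, and 1 with that day alone and 1 to 2 without 1 library. In footprints at day 14 it was 2, and 1 with no low-count filter, 1 with that day alone and 1 without any 1 library. The RNA difference of ODC1 at day 14, -0.06, was 0.070 without sgDDX3 RNA replicate 2 and -0.20 to 0.070 over the fits without 1 library. A group left with 1 library was assumed to vary like the others.

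Over all genes, calls between the guides numbered 2574 (RNA, day 3), 2674 (RNA, day 14), 752 (footprints, day 3), 672 (footprints, day 14), 763 (efficiency, day 3) and 260 (efficiency, day 14). All genes called fell with 1 day alone to 1510 in RNA at day 14, 154 and 228 in footprints at days 3 and 14 and 105 in efficiency at day 14, and with no low-count filter footprint calls were 1594 and 1221. Without 1 library the lowest were 1338 and 1076 in RNA at days 3 and 14, 119 and 144 in footprints, and 435 and 113 in efficiency. The cause was not tested.

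Whether replicate numbers pair the libraries was not settled, since a correlation over all genes cannot exclude pairing. Deviations of same-numbered libraries correlated at -0.13 to 0.06 between groups in RNA, -0.26 to 0.22 in footprints and -0.02 to 0.08 between assays. Of the 15 pairs of groups, 0 in RNA and 1 in footprints lay above 0.1. With the replicate block, SRM lost its RNA calls at day 3 between the guides (0.26, adjusted p = 0.0689) and at day 14 against day 3 in sgDDX3 cells (-0.31, adjusted p = 0.0652), and ODC1 gained the footprint change of the guide difference of day 14 with day 3 (0.74, adjusted p = 0.0422); no other call of a member changed. Depth limits AZIN2 and PAOX, whose guide differences have SE of 0.20 to 0.46.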
